A study of Mus musculus with 15 samples.

Results

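Interferon-stimulated genes were followed through immortalised brown preadipocytes treated with fibroblast growth factors (FGFs). The set was a list of 43 gene symbols, and all 43 were found among the 29072 symbols of the deposited table. Each gene was represented by the line with the highest mean over the 15 libraries. Values are RPKM, a read count scaled to transcript length and library size, so levels of different genes could be compared per length. The cells came from the stromal-vascular fraction of interscapular brown fat of 129SvEv mice and were immortalised with SV40 large T antigen, which all 5 groups therefore carried. The 3 control libraries had no agent. The FGF1, FGF8b and FGF9 groups received 5.56 nM of the named factor for 48 h with 1 µg/ml heparin, a sulfated sugar that helps FGFs bind their receptors. A further group received FGF8b with heparin and 2 µM BAY-876, which blocks glucose uptake through GLUT1. Each group had 3 libraries. Heparin appears in the labels of the FGF9 samples only, while the series text gives it to every FGF group. Heparin and culture time of the control were not stated, no group had heparin or BAY-876 alone, and nothing says whether the 3 libraries of a group were separate cultures. The p-values therefore measure the spread between these libraries, which may be technical, and the part of heparin in any difference from control cannot be told apart from that of the FGF. BAY-876 was given with FGF8b only.

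Interferons are secreted proteins that warn cells of infection. Type I interferons such as interferon beta bind the receptor made of Ifnar1 and Ifnar2, whose kinases Jak1 and Tyk2 phosphorylate STAT proteins such as Stat2. Stat2 acts with Irf9 in a transcription factor that binds the interferon-stimulated response element (ISRE) in front of its target genes, while interferon gamma acts mainly through a different element, GAS. The targets include sensors of foreign RNA and DNA, proteins that block viral translation, entry or budding, and the signalling factors themselves. A low tonic level of this response is present in many unstimulated fibroblast-like cells.

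Library depth was 27 to 42.6 M reads, as read from the steps of the RPKM values. The preadipocyte marker list summed to 2040.1 to 2368 RPKM in control, 1302 to 1334 with FGF1, 491 to 582 with FGF8b, 480.0 to 588 with FGF9 and 269 to 273 with BAY-876. All 8 of its genes had means above 0.5 RPKM in every group. Ly6a, which carried much of that sum (1015 RPKM in control, 245 with FGF1 and 52.7 with FGF8b), is itself inducible by interferon. The genes of the list did not all go one way: with FGF8b the mean of Thy1 was 62.8 RPKM against 37.8 in control and that of Cd44 49.7 against 27.4, and with FGF1 the means of Pdgfra, Pdgfrb, Thy1 and Col1a1 were above control. Brown fat markers stood at 21.6 to 22.2 RPKM in control, 48.7 to 52.8 with FGF8b and 17.7 to 18.5 with BAY-876. The uncoupling protein Ucp1 made up much of the FGF8b sum (26.7 RPKM, against 0.0226 in control), while the mature fat cell genes Cidea, Adipoq and Plin1 were under 0.1 RPKM in every group. The macrophage list ran from 5.35 to 9.47 RPKM over all 15 libraries. Of its genes, Emr1 was at 0 in every group and Ptprc at 0 in every group but FGF8b (0.00427 RPKM). Itgam, Cd14, Csf1r and Cd68 had means above 0.5 RPKM in every group. Lyz2 was lower where the members were, at 0.764 RPKM in control, 0.286 with FGF1, 0.0569 with FGF8b and 0.00618 with BAY-876. Lymphocyte and plasmacytoid dendritic cell genes never summed to more than 0.129 RPKM. The endothelial list was lower where the members were, from 7.65 to 8.98 RPKM in control to 1.68 to 1.77 with FGF1 and 0.404 to 0.59 with FGF8b, through Kdr and Tek, while Pecam1 and Cdh5 had means under 0.1 RPKM in every group. With BAY-876 the endothelial sum was 1.84 to 2.1 RPKM, mostly Vwf. The mural cell sum ran the other way, from 2.86 to 4 RPKM in control to 4.96 to 6.24 with FGF8b. That was through Cspg4 and Mcam, while Rgs5, Abcc9 and Kcnj8 had lower means with FGF8b than in control. The skeletal muscle sum lay between 3.99 and 8.45 RPKM throughout. It was mostly Acta1, with Myod1, Myog and Myf5 at 0 in every group. The part of these markers in the results was not tested.

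The libraries of the FGF8b plus BAY-876 group spread furthest over the members. Its second library was the lowest of the group for 41 of 43 members and its first the highest for 37. The members summed to 1296, 892.1 and 1133 RPKM in the 3 libraries. The second library was often the lowest elsewhere too. That held for 30 members in control, 34 with FGF1 and 36 with FGF8b, but for 15 with FGF9. The median coefficient of variation of the members was 30.6% in the BAY-876 group, against 6.51% to 9.26% in the other 4. For all tested genes it was 8.21% in the BAY-876 group. The counts and medians over the members that rest on this group are therefore given with and without its second library.

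Promoter sequences show where the known response elements lie in members that differed in how far they fell. RefSeq promoters, from 250 bases before to 50 after each start site on GRCm38.p6, were found for 32 of 43 members (36 entries). The ISRE core was searched on both strands as GAAANNGAAA and the GAS core as TTCNNNGAA. An ISRE core was present in 16 of the 32 members (50%), against 3.99% of 27025 genes in the same table, and a GAS core in 7 (21.9%), against 9.55%. Both were found in 4 members, and the 2 kinds of match overlapped in 2 entries. Of members with 1 entry, 53.6% held an ISRE core, against 3.58% of all genes with 1 entry. The 16 members with an ISRE core had a median log2 change of -2.62 in FGF8b against control (from -4.04 to -1.29), and the 16 with entries but none had a median of -1.71 (from -3.84 to -0.60). The 11 members without an entry, from Ifi27l2a (-4.29) to Usp18 (-1.4), enter neither median, and the difference between the medians was not tested. A match is a description of the letters and does not show that a factor binds there. The 200 bases before the start site are given below for Ifit3 and Rsad2, the 2 members with an ISRE core that fell furthest under FGF8b, and for Irf9 and Irf1, the members that fell least. Irf9 and Irf1 have 2 entries each, of which 1 is shown. They lie at chr19:34583329-34583528 (plus strand), chr12:26456453-26456652 (minus strand), chr14:55603785-55603984 (plus strand) and chr11:53769814-53770013 (plus strand). Capitals mark ISRE or GAS cores, and every sequence reads 5′ to 3′ on the gene's strand.
Ifit3: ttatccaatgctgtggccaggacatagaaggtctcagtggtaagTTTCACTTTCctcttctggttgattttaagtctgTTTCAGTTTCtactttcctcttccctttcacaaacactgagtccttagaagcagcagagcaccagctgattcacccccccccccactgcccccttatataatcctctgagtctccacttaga
Rsad2: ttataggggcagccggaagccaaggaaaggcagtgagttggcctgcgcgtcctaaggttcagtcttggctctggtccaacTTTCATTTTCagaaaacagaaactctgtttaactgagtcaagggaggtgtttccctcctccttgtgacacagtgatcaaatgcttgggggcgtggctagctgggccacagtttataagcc
Irf9: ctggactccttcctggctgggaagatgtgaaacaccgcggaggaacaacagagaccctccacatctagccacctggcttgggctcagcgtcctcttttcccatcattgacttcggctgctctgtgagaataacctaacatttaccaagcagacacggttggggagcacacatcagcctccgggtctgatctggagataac
Irf1: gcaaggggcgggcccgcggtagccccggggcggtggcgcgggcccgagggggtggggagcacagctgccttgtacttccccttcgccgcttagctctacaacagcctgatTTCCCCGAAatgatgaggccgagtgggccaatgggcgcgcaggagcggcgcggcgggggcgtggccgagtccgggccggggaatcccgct
In Ifit3 the ISRE matches began 156 and 122 bases before the start site, and in Rsad2 the match began 120 bases before it, all read on the opposite strand. The Irf1 window held a GAS core beginning 90 bases before the start site and no ISRE core. No full match to either core was found in the Irf9 window or in the other Irf9 entry.

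Untreated preadipocytes already carried high levels of these transcripts. In control, 19 of 43 members stood at 100 RPKM or more, as did 763 of all 13869 tested genes. A further 21 members stood between 10 and 100, and 3 under 10. The most abundant were Ifitm3, which hinders the entry of enveloped viruses (1303 ± 112 RPKM, SD, n = 3), Bst2 or tetherin, which holds budding virus at the cell surface (1141 ± 114 RPKM, SD, n = 3), and Ifit3, an RNA-binding antiviral protein (908 ± 51.2 RPKM, SD, n = 3). The least abundant was Oas3, a synthase of the antiviral messenger 2-5A (1.11 ± 0.205 RPKM, SD, n = 3). Summed over members, the level was 9021, 8054 and 8218 RPKM in control, 3910, 3603 and 3665 with FGF1, 1966, 1726 and 1925 with FGF8b, 1762, 1794 and 1653 with FGF9 and 1296, 892.1 and 1133 with FGF8b plus BAY-876. No library of any FGF group reached the lowest control library on this sum. In bulk RNA, fewer cells of a type and less RNA per cell cannot be told apart.

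**Figure D1:**
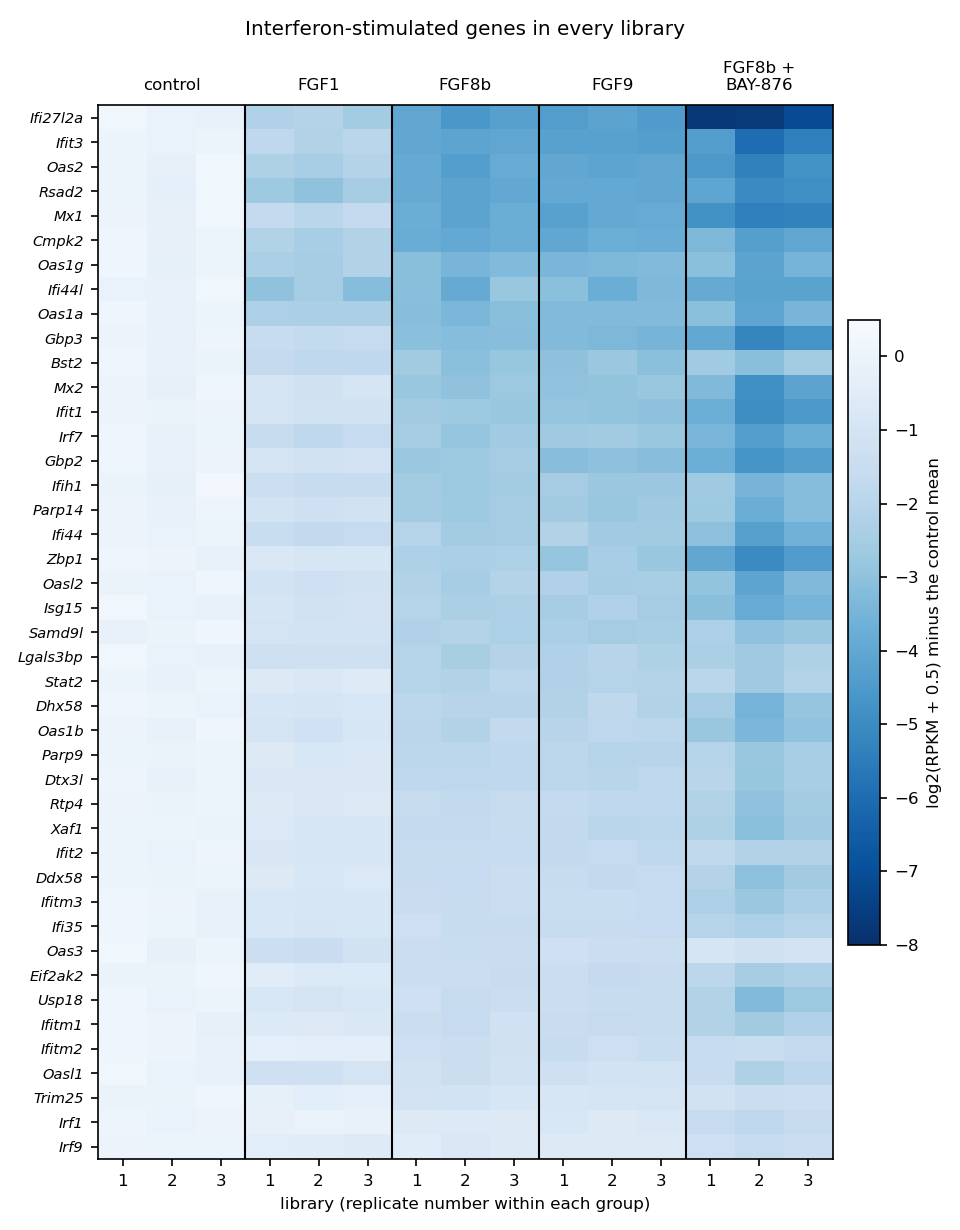
Each row is a member and each column a library, grouped by treatment. Colour is log2(RPKM + 0.5) minus the control mean, rows ordered by the change under FGF8b. All 43 members had group means in the order control, FGF1, FGF8b, and the second BAY-876 library is the darkest of its group for most rows.

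The series set out to compare paracrine FGFs, and FGF1, which binds all FGF receptors, is taken first. Nearly every member fell: 42 of 43 were lower by limma at an adjusted p under 0.05, none was higher, and Irf1 did not pass. Of all 13869 tested genes, 15.1% were called lower. Every FGF1 library was below every control library for the same 42, as for 20.5% of all tested genes. All 43 members passed the level filter, Oas3 through the control libraries alone, so that it had to differ from control. Without Oas3 the count was 41 of 42. Members kept a median of 47.9% of their control level (range 8.67% to 91.2%). Their median log2 change was -1.04, beside 0.02 for all tested genes.

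Under FGF8b all 43 members fell (42 of 42 without Oas3). Of all tested genes, 26.6% were called lower and 37.8% higher. Every FGF8b library was below every control library for all 43 members, as for 28.2% of all tested genes. The members' median was 21.1% of control (range 4.48% to 65.8%), with a median log2 change of -2.21 beside 0.08 for all genes. A log2 change of -1 or below was seen for 41 of 43 members under FGF8b and for 25 under FGF1. The shares of all tested genes were 8.04% and 2.62%. In 9 members the FGF8b mean was 10% of control or less, against 1 member under FGF1, with no share over all genes counted. Control libraries enter both of these comparisons, so FGF8b was also set against FGF1 directly. There 39 of 43 members were lower and 4 did not pass, where 26.6% of all genes were called lower, and the median log2 change was -1.02 (all genes 0.04).

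FGF9 values lay near those of FGF8b. Against control all 43 members were lower (42 of 42 without Oas3), where 27.0% of all tested genes were. No libraries overlapped, Oas3 included, as for 27.5% of all tested genes. The members had a median of 18.9% of control and a median log2 change of -2.35. Set against FGF8b, no member passed by limma or by voom, and 0.0937% of all genes were called lower. At an unadjusted p under 0.05, 2 of 43 members, Gbp2 and Zbp1, were lower with FGF9 by limma and by voom. Such a threshold lets through about that many of 43 genes without any difference. Both methods use the same libraries, and the share over all genes was not counted. Means were below those of FGF8b for 37 of 43 members, and single members ran from -0.44 to 0.08. That count was not made over all genes, and members that vary together are not separate observations. The median log2 difference was -0.10, beside 0.01 for all genes. It was smaller than the SD of 0.13 between libraries of a group in the members' median. The difference was -0.05 without FGF8b replicate 1 and -0.16 without FGF8b replicate 2.

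**Figure D2:**
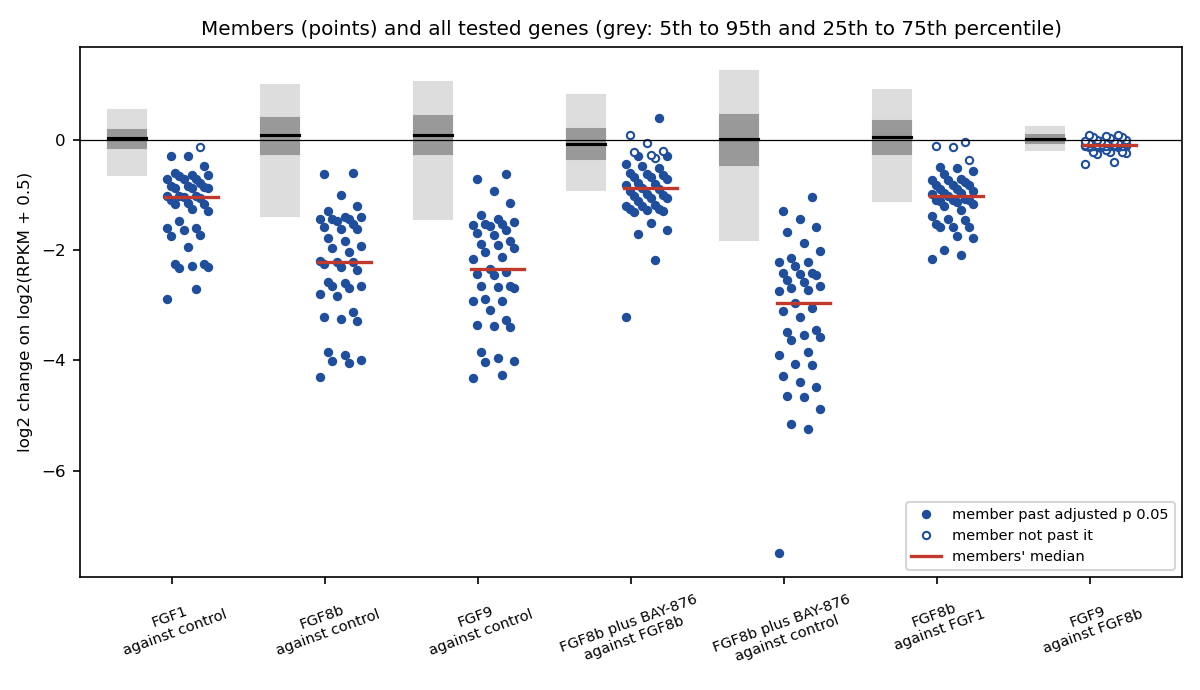
Log2 changes, on log2(RPKM + 0.5), of the 43 members (filled points past adjusted p 0.05, open points not; red line, median) in the 7 comparisons, beside all 13869 tested genes (grey bars, 5th to 95th and 25th to 75th percentile; black line, median). In FGF8b against control the members ran from -4.29 to -0.60, while the 5th percentile of all genes was -1.38. In FGF9 against FGF8b they ran from -0.44 to 0.08.

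The 4 sensors of nucleic acids among the members were lower than control in every FGF group. Of all tested genes, 15.1% were called lower with FGF1, 26.6% with FGF8b, 27.0% with FGF9 and 35.9% with BAY-876 added. The sensors warn of foreign RNA or DNA: Ddx58 (RIG-I), Ifih1 (MDA5), their relative Dhx58 (LGP2), and Zbp1, which binds left-handed nucleic acid. Zbp1 stood at 57.4, 53.6 and 47.5 RPKM in the control libraries, 30.9, 28.1 and 28.7 with FGF1, 10.6, 10.1 and 10.2 with FGF8b, 6.83, 9.36 and 7.18 with FGF9 and 2.8, 1.12 and 2.04 with BAY-876 added. For Zbp1, each step from control to FGF1, to FGF8b and to BAY-876 left no overlap between libraries. In FGF8b against control the log2 changes were -2.60 for Ifih1, -2.30 for Zbp1, -1.97 for Dhx58 and -1.53 for Ddx58. With FGF1 they were -1.47, -0.84, -0.87 and -0.71 in the same order.

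The 4 transcription factors of the set spanned a wide range (medians of -0.56 with FGF1 and -1.33 with FGF8b). Irf7, which amplifies interferon production, went from 235, 190.3 and 209 RPKM in control to 72.7, 60.9 and 68.9 with FGF1 and 36.5, 28.3 and 34.6 with FGF8b, and Irf7 libraries of these groups did not overlap. Its log2 change was -1.64 with FGF1 (limma adjusted p = 1.22e-06) and -2.66 with FGF8b (adjusted p = 9.56e-10). Stat2, the partner of Irf9, stood at 97.9, 87.2 and 97.2 RPKM in control, 60.7, 56.5 and 63.5 with FGF1 and 22.5, 20.5 and 25.2 with FGF8b. It fell by 0.64 with FGF1 and by 2.03 with FGF8b on the log2 scale. Irf9, the DNA-binding part of that complex, had smaller differences, at 59.2, 58 and 58.6 RPKM in control, 43.7, 42.1 and 40.1 with FGF1 and 41.7, 35.9 and 38 with FGF8b. Its log2 changes were -0.48 and -0.60, and the difference between FGF8b and FGF1 (-0.12, adjusted p = 0.145) did not pass, although it did with trimmed-mean (-0.16) or upper-quartile (-0.18) scaling. Irf1, a transcription factor induced by interferon gamma, was at 56.3, 49.7 and 53.8 RPKM in control and 46.6, 50.3 and 48.8 with FGF1, and those libraries overlapped (log2 change -0.13, adjusted p = 0.202). With FGF8b it read 34.5, 34.2 and 34.3 RPKM, below every control and FGF1 library (log2 change against control -0.62, adjusted p = 2.46e-06).

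**Figure D3:**
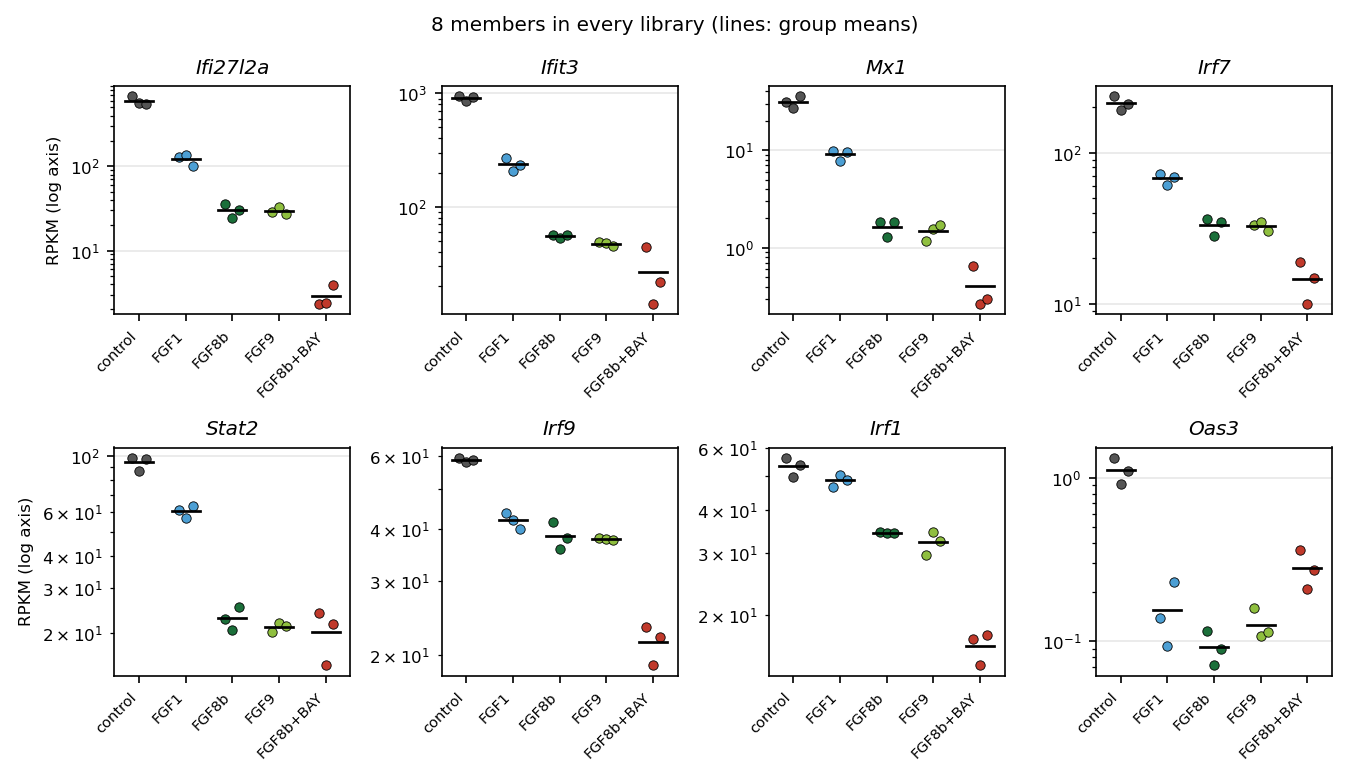
RPKM of 8 members in each library, on log axes that differ between panels; horizontal lines are group means. Ifi27l2a steps down from control to FGF1, FGF8b and BAY-876, Stat2 overlaps between FGF8b with and without BAY-876, and Oas3 is higher with BAY-876 than with FGF8b.

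The antiviral effectors, 22 of the members, held many of the deepest falls. All 22 were lower than control under FGF1 (median log2 change -1.16), FGF8b (-2.66) and FGF9 (-2.90). Of all tested genes, 15.1%, 26.6% and 27.0% were called lower, with medians of 0.02, 0.08 and 0.09. The 22 include Oas3, which passed the level filter through the control libraries alone and so had to differ from control. The Ifit proteins bind viral RNA and hinder its translation. Ifit3 had 942, 849 and 934 RPKM in the control libraries, 268, 208 and 235 with FGF1, 56.2, 52.7 and 55.5 with FGF8b and 48.3, 47.4 and 44.8 with FGF9. Groups from control to FGF8b did not overlap, and its log2 change was -1.94 ± 0.26 (SE) with FGF1 and -4.04 ± 0.26 with FGF8b. Its neighbour on the chromosome Ifit2, in contrast, fell by 0.85 and 1.58. Ifit1 read 287, 271 and 285 RPKM in control, 140.2, 126 and 129 with FGF1 and 46.5, 43.3 and 40.3 with FGF8b.

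Rsad2 (viperin), which makes a chain-terminating nucleotide, and Cmpk2, a nucleotide kinase, lie side by side in the genome. Rsad2 was at 42, 33.6 and 45.8 RPKM in control, 5.87, 4.75 and 6.77 with FGF1 and 2.3, 1.82 and 2.09 with FGF8b. Cmpk2 was at 24.5, 19.6 and 23.2 RPKM in control, 4.68, 3.69 and 4.57 with FGF1 and 1.12, 0.999 and 1.18 with FGF8b. No libraries of these groups overlapped for either gene. With FGF9 the libraries read 2.14, 2.19 and 2.07 RPKM for Rsad2 and 0.919, 1.23 and 1.13 for Cmpk2, close to FGF8b. The log2 changes of the pair were -2.70 and -2.25 with FGF1, and -3.99 and -3.84 with FGF8b. Both were among the 8 deepest falls in each of these comparisons.

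Mx1 and Mx2 are dynamin-like GTPases that trap incoming virus. Mx1 read 31.4, 27.3 and 35.6 RPKM in control, 9.76, 7.82 and 9.61 with FGF1, 1.83, 1.3 and 1.82 with FGF8b and 1.18, 1.56 and 1.71 with FGF9. Of all members, Mx1 differed most between FGF8b and FGF1, with FGF8b at 18.2% of the FGF1 level (log2 change -2.16 ± 0.16, limma adjusted p = 1.67e-08). Mx2 was at 56.6, 49.6 and 61.7 RPKM in control, 28, 24.5 and 29.1 with FGF1 and 7.83, 6.73 and 8.18 with FGF8b, a fall of 1.03 and 2.80 on the log2 scale against control.

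The 2-5A synthases and their relatives spread widely. Oas2 had 26.4, 23.7 and 30.4 RPKM in control, 5.29, 4.5 and 5.78 with FGF1, 1.32, 0.862 and 1.43 with FGF8b and 1.21, 1.1 and 1.17 with FGF9. Its log2 change was -2.26 with FGF1 and -4.01 with FGF8b. Oas1a read 100.1, 79.6 and 89.1 RPKM in control, 18, 17.2 and 17.3 with FGF1 and 9.75, 8.01 and 10 with FGF8b. Oas1g read 55.3, 42.8 and 50.5 RPKM in control, 9.3, 8.55 and 10.6 with FGF1 and 5.26, 3.97 and 4.65 with FGF8b. Oas1a and Oas1g are close copies and may share reads, so the split between them is uncertain. Their falls against control were 2.31 and 2.32 with FGF1, and 3.21 and 3.29 with FGF8b. Oasl1, an OAS-like protein without synthase activity, had similar values with FGF1 (3.55, 3.5 and 4.22 RPKM) and FGF8b (3.87, 3.16 and 3.93), both below control (10.4, 8.41 and 8.34). Its FGF8b libraries overlapped those of FGF1 (log2 change -0.04, adjusted p = 0.849).

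Oas3 was the lowest member in control and rested on few reads. It had 1.32, 0.912 and 1.1 RPKM in control, 0.139, 0.0942 and 0.23 with FGF1, 0.116, 0.0712 and 0.0899 with FGF8b and 0.159, 0.107 and 0.114 with FGF9, from 549, 65, 41 and 71 reads per group. Oas3 passed the level filter because control was high, so its fall from control is a description and its calls against control support nothing.

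Guanylate-binding proteins Gbp2 and Gbp3 attack the vacuoles of intracellular pathogens. Gbp3 fell from 173, 157 and 181 RPKM in control to 59.1, 53 and 54.9 with FGF1, 19.7, 18.4 and 18.9 with FGF8b and 17, 15.9 and 14.6 with FGF9. Gbp2 read 126, 104 and 117 RPKM in control, 56.6, 53.4 and 55.2 with FGF1, 16.7, 17.6 and 19.9 with FGF8b and 12.6, 14 and 12.8 with FGF9. The Gbp2 libraries of FGF9 lay below all those of FGF8b, but the difference (log2 -0.44) had an adjusted p of 0.54 by limma. Ifitm1, Ifitm2 and Ifitm3, close relatives in 1 cluster, fell less, by 1.40, 1.29 and 1.47 with FGF8b, and Ifitm2 by 0.30 with FGF1 (396, 386 and 382 RPKM against 525, 484 and 429 in control). Bst2 read 1271, 1057 and 1094 RPKM in control, 367, 331 and 334 with FGF1 and 193, 134 and 158 with FGF8b, so that it fell by 1.73 and 2.83. Eif2ak2 (PKR), which halts translation on double-stranded RNA, fell by 0.60 and 1.43, and Samd9l by 1.04 and 2.21.

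The ISG15 system and the ADP-ribosylation genes fell by moderate amounts. Isg15, a ubiquitin-like protein attached to other proteins, went from 471, 388 and 367 RPKM in control to 218, 188 and 197 with FGF1 and 96.9, 80.5 and 84.4 with FGF8b. Usp18, which removes Isg15 and restrains the interferon receptor, read 163, 142 and 148 RPKM in control, 85.2, 75.7 and 85 with FGF1 and 63.1, 50.5 and 57.6 with FGF8b. The difference of Usp18 between FGF8b and FGF1 (-0.52, adjusted p = 0.0206) was lost without the level filter (adjusted p = 0.0512), without FGF1 replicate 1 (0.0577) or 3 (0.0573), and without FGF8b replicate 2 (0.0815). Parp9, Dtx3l and Parp14 are adjacent genes for an ADP-ribosyltransferase-like protein, its E3 ligase partner and a further ADP-ribosyltransferase. Their log2 changes were -1.84, -1.79 and -2.57 with FGF8b. Trim25, the E3 ligase of RIG-I, fell by 1.00 with FGF8b and by 0.30 with FGF1, and the FGF1 call was lost without control replicate 3 (adjusted p = 0.0578) or FGF1 replicate 2 (0.0708).

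Among the other induced proteins, Ifi27l2a is a small mitochondrial and membrane protein. On the log2(RPKM + 0.5) scale it had the deepest fall of all members with FGF8b. As a share of control, Oas2 (4.48%) and Cmpk2 (means of 1.1 against 22.4 RPKM) were lower still than Ifi27l2a (5.09%). By voom Oas2 (-4.53) and Ifi44l (-4.45) were among the members below Ifi27l2a (-4.32). Ifi27l2a stood at 678, 558 and 551 RPKM in control, 129, 136 and 101 with FGF1, 36.2, 24.3 and 30.5 with FGF8b and 28.3, 33 and 27.2 with FGF9. Its FGF8b mean was 5.09% of control, a log2 change of -4.29 ± 0.17 (adjusted p = 4.38e-12). Ifi44 and Ifi44l are adjacent relatives. Ifi44l had 7.83, 7.81 and 9.7 RPKM in control, 0.642, 1.07 and 0.489 with FGF1, 0.528, 0.115 and 0.8 with FGF8b and 0.566, 0.149 and 0.387 with FGF9, from 430, 31, 21 and 21 reads. It was the member with the deepest fall under FGF1, where control was 11.8 times higher by reads (95% exact interval 8.19 to 17.6), and its FGF8b and FGF1 libraries overlapped (adjusted p = 0.203, or 0.0462 with a log2 change of -0.60 without FGF8b replicate 3). By voom its fall against control was 4.45 with FGF8b, and 3.25 on the log2(RPKM + 0.5) scale. Lgals3bp, a secreted scavenger-receptor protein, read 280.4, 235 and 232 RPKM in control, 105, 101 and 103 with FGF1 and 58.4, 46.5 and 57.3 with FGF8b. Xaf1, Rtp4 and Ifi35 fell by 1.62, 1.62 and 1.44 with FGF8b.

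With BAY-876 added to FGF8b, most members were lower still: 36 of 43 were lower than with FGF8b alone, 1 was higher and 6 did not pass by limma. Of all tested genes 34.8% were called lower and 22.5% higher, 4824 and 3117 genes, a split that became 4017 and 3938 under upper-quartile scaling. The members' median was 52.3% of the FGF8b level and their median log2 change -0.87, beside -0.08 for all genes. Without the second BAY-876 library, 34 members were lower and 1 higher, and the medians were 59.4% and -0.73. Every library with BAY-876 was below every FGF8b library for 33 members and above for Oas3, as for 37.9% and 24.8% of all tested genes, and the members' counts were the same without that library. Against control all 43 were lower (42 of 42 without Oas3), where 35.9% of all genes were, with a median of 12.7% of control. That median log2 change was -2.96 (-2.68 without the second BAY-876 library, again with 43 members lower, Oas3 among them). Without that library the median was 15.1% of control. Then 15 members rather than 19 were at 10% of control or less, a share not counted over all genes.

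On the log2(RPKM + 0.5) scale Ifi27l2a again fell most, from 36.2, 24.3 and 30.5 RPKM with FGF8b to 2.32, 2.4 and 3.85 with BAY-876 added. The groups did not overlap (log2 change -3.21 ± 0.17, adjusted p = 3.63e-10), and the BAY-876 mean was 0.48% of control. Here the second BAY-876 library was not the lowest. Zbp1 followed, at -2.18, then Ifit1 (-1.71), Gbp2 (-1.63) and Gbp3 (-1.51). That order depends on the added 0.5 RPKM, since as a share of the FGF8b level Ifi44l (7.71%, 2 reads) was below Ifi27l2a (9.42%), and Mx1 (24.7%) below Ifit1 (31.6%). Ifit1 read 20.6, 8.79 and 11.8 RPKM in the 3 BAY-876 libraries, Gbp2 8.18, 3.84 and 5.17 and Gbp3 10.3, 4.11 and 5.92, all below every FGF8b library. Ifit3, at 43.8, 13.8 and 21.3 RPKM, and Mx2, at 5.18, 1.45 and 2.72, spread widely between libraries, and Mx1 read 0.656, 0.265 and 0.301, each below every FGF8b library.

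The order of the members differed from that under FGF8b. Irf1 and Irf9, the least changed under FGF8b, both lay below all libraries of FGF8b. Irf1 read 17, 14.3 and 17.5 RPKM and Irf9 23.4, 18.9 and 22.1 with BAY-876, log2 changes of -1.06 (adjusted p = 1.17e-08) and -0.83 (adjusted p = 9.52e-08). Stat2 had 23.9, 14.8 and 21.6 RPKM and overlapped FGF8b (log2 change -0.20, adjusted p = 0.198). Bst2 had 186, 133 and 195 RPKM, Cmpk2 1.71, 0.655 and 0.893 and Lgals3bp 48.5, 39 and 52, each overlapping FGF8b. Oas1a (10.1, 4.9 and 7.55 RPKM) and Oas1g (5.49, 2.36 and 3.8) completed the 6 that did not pass, and the adjusted p of these 6 ran from 0.0983 (Lgals3bp) to 0.777 (Cmpk2). Without the first BAY-876 library, Oas1a, Oas1g, Stat2 and Cmpk2 passed as lower (log2 -0.56, -0.54, -0.33 and -0.33). Lgals3bp passed without the third BAY-876 library (-0.30) or FGF8b replicate 2 (-0.32).

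For 3 members the lower call with BAY-876 was lost when 1 library was left out. Ifih1 (6.8, 3.46 and 4.45 RPKM with BAY-876 against 7.26, 6.36 and 7.29 with FGF8b) lost its call without the second BAY-876 library (log2 -0.31, adjusted p = 0.103), the third (adjusted p = 0.0536) or FGF8b replicate 3 (adjusted p = 0.0501). Rsad2 (1.93, 0.749 and 0.854 RPKM) lost it without the second BAY-876 library (log2 -0.50, adjusted p = 0.0519). Ifi44l (0.111, 0 and 0 RPKM) had 2 reads in the 3 BAY-876 libraries against 21 with FGF8b, a ratio of FGF8b to BAY-876 of 12.1 (95% exact interval 2.95 to 106), and its call was lost without FGF8b replicate 3 (adjusted p = 0.0609).

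Oas3 was the member that rose with BAY-876. It read 0.361, 0.208 and 0.273 RPKM, against 0.116, 0.0712 and 0.0899 with FGF8b alone, with no overlap, and 147 reads against 41. The BAY-876 mean was 3.04 times that of FGF8b. Its log2 change was 0.39 (adjusted p = 0.00733), or 1.59 by voom, and it stayed below control (-1.04). Its neighbour Oas2 fell, to 0.651, 0.175 and 0.51 RPKM (log2 change -0.87).

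**Figure D4:**
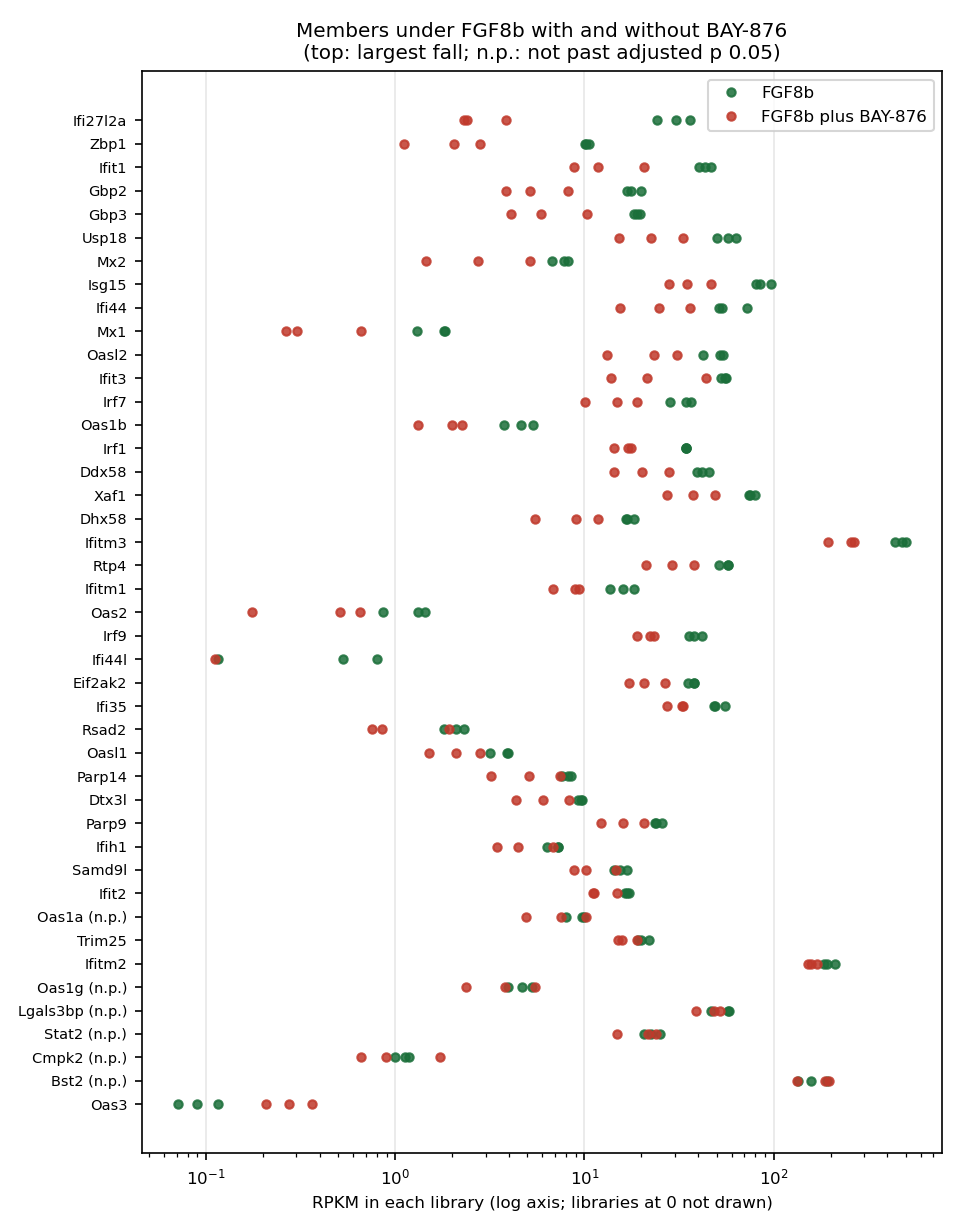
RPKM of each member (row) in the 3 FGF8b libraries (green) and the 3 FGF8b plus BAY-876 libraries (red), on a log axis, ordered by log2 change. Ifi27l2a shows no overlap, the 6 rows marked n.p. (not passing) overlap, and Oas3 is the row whose BAY-876 libraries all lie to the right.

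Genes that act upstream of the members are known to set the level of the response. Of 19 interferons and receptor chains listed, 6 passed the level filter, Ifnb1 through the control libraries alone. Interferon beta itself (Ifnb1) was detected at 0.818, 1.15 and 1.04 RPKM in control, 0.203, 0.192 and 0.352 with FGF1, 0.0417, 0 and 0 with FGF8b, 0.0325, 0.0312 and 0 with FGF9 and 0, 0.0877 and 0 with BAY-876. These are 80 reads in the 3 control libraries, 17 with FGF1, 1 with FGF8b, 2 with FGF9 and 2 with BAY-876. Since Ifnb1 passed the filter through control, these values are a description, with no test.

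The receptor chains and kinases changed by less. Ifnar1 had a log2 change of -0.20 with FGF8b and 0.02 with FGF1 (adjusted p = 0.834), and Ifnar2 fell by 0.76 with FGF8b, from 33.8, 31.9 and 34.8 to 19.9, 17.2 and 21.9 RPKM. Of the interferon gamma receptor, Ifngr1 fell by 0.72 and Ifngr2 rose by 0.32, and Il10rb, shared with the lambda receptor, fell by 0.85. Jak1 stood at 71.5, 70 and 78.1 RPKM in control and 70.7, 71.4 and 72 with FGF8b, groups that overlapped, and at 46, 45.2 and 43.5 with BAY-876, below both. Tyk2 fell by 0.44 with FGF8b and rose by 0.44 when BAY-876 was added. Of the 18 tested genes of JAK-STAT and IRF signalling, 7 were lower, 4 higher and 7 did not pass with FGF8b, with a median of -0.02. Of all tested genes, 26.6% were lower and 37.8% higher in that comparison. The feedback inhibitor Socs1 fell by 1.47 and the repressor Irf2 by 0.93, while the phosphatase Ptpn6 rose by 1.06. Ptpn6 rested on 68 reads in control, where its libraries read 0.816, 2.86 and 1.14 RPKM. Stat3 fell by 0.33 with FGF8b and by a further 1.37 with BAY-876.

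Sensing genes outside the members went both ways. Of 19 tested, 11 were lower, 2 higher and 6 did not pass with FGF8b, where 26.6% of all tested genes were lower and 37.8% higher. Tlr3, the endosomal receptor of double-stranded RNA, fell by 2.29, the DNase Trex1 by 2.15 and the nucleotide hydrolase Samhd1 by 1.80. All 3 are also known to be inducible by interferon to some degree. The adaptors Mavs (-0.02) and Tmem173, or STING (0.05), and the kinase target Irf3 (0.00) did not pass. With BAY-876, Tmem173 fell by 0.91 from its FGF8b level, and Mavs was higher by 0.20 (adjusted p = 0.0418) with overlapping libraries.

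**Figure D5:**
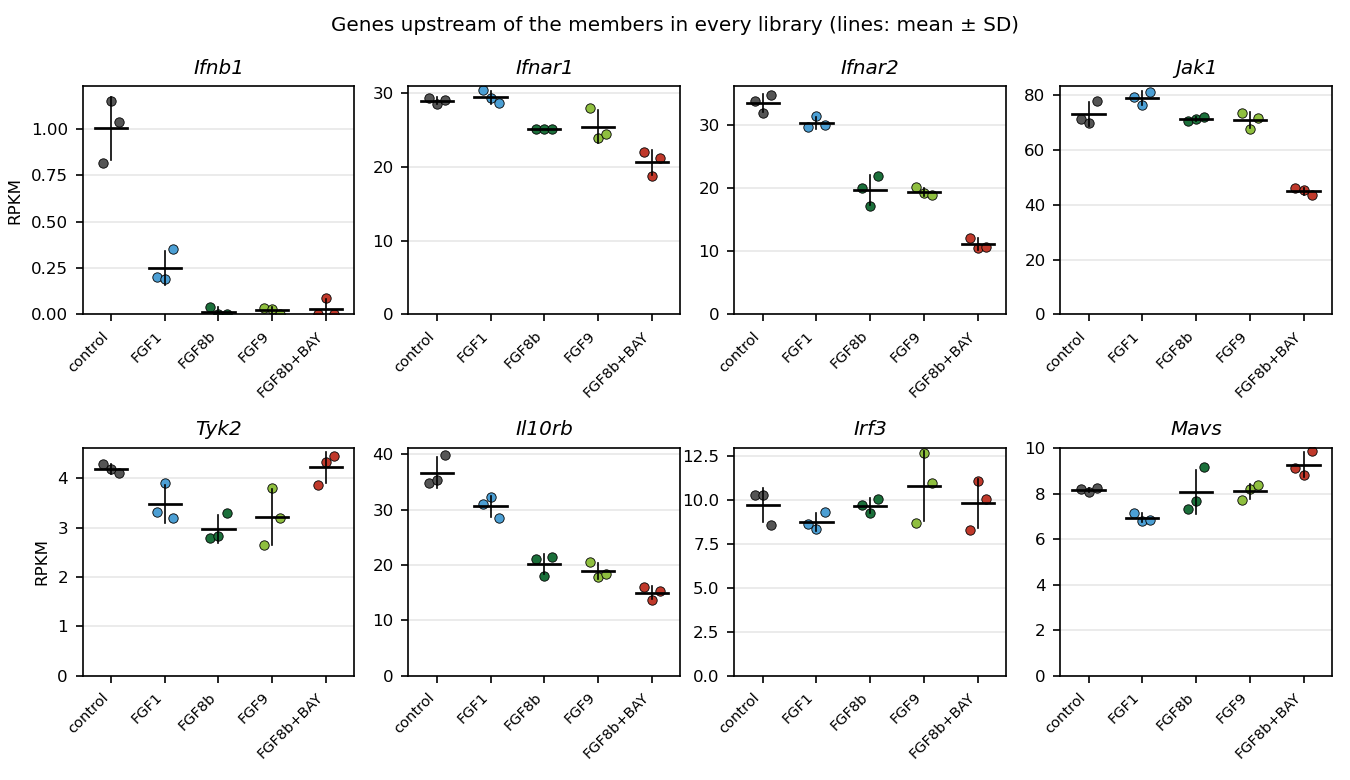
RPKM, on linear axes from 0, of 8 genes that act before the members, in each library; bars are mean ± SD. Ifnb1 is near 0 in every FGF8b, FGF9 and BAY-876 library, while Irf3 lies between 8.27 and 12.6 RPKM in all 15 libraries.

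Further interferon-stimulated genes, 56 tested of 63 listed outside the members, were counted alike. All 56 were lower than control with FGF1, FGF8b, FGF9 and FGF8b plus BAY-876, Cxcl11 passing the filter through control alone, with medians of -1.17, -2.25, -2.33 and -2.82 (-2.65 for the last without the second BAY-876 library). Of all tested genes 15.1%, 26.6%, 27.0% and 35.9% were lower in these comparisons. The deepest under FGF8b were the GTPases Tgtp2 (-4.60), Tgtp1 (-4.54) and Iigp1 (-4.43), and the chemokine Cxcl9 (-4.41). Tgtp1 and Tgtp2 are near-identical copies whose reads cannot be firmly divided. Iigp1 had 185, 178 and 214 RPKM in control and 8.78, 7.84 and 8.68 with FGF8b. Set against FGF8b, the BAY-876 group was lower for 42 of the 56, higher for Nlrc5 (0.57) and Cd274 (0.45), and 12 did not pass, where 34.8% of all tested genes were lower and 22.5% higher. Without the second BAY-876 library 37 were lower and 2 higher.

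Over the 15 libraries, the genes outside the interferon lists whose pattern was most like the mean of the members were H2-T24 (Pearson r = 0.995), Olfr56 (0.995), Psmb8 (0.994), H2-T10, Apod, Ly6a, Adam23 and Ly6e (each 0.993). Absence from the lists does not make a gene unrelated to interferon, and Ly6a is inducible by it, as stated above. Libraries of a group share their treatment, so these r values describe the 5 group levels more than 15 separate points. Psmb8, a subunit of the immunoproteasome, went from 82.8 RPKM in control to 38.4 with FGF1, 18.9 with FGF8b and 10.9 with BAY-876. Apod, a lipid carrier, went from 277 to 32.3, 8.31 and 1.36 RPKM. Within the set, the member least like the others was Oas3 (0.707), then Irf1 (0.885), Irf9 (0.905) and Oasl1 (0.916).

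The other lines of each gene gave the same directions in most cases. The table held 270 lines with a member's symbol, all over the level filter. Every library with FGF8b was below every control library for all 270 lines, with FGF1 for 257 and with FGF9 for 267, and the remaining 13 and 3 lines overlapped. With BAY-876 against FGF8b, 207 lines were below, 2 above and 61 overlapped. Without the second BAY-876 library, 208 were below and 2 above. Of all 95112 lines over the filter, every library was below control for 26.9% with FGF8b, 19.1% with FGF1 and 25.5% with FGF9, and with BAY-876 37.2% were below FGF8b and 24.4% above. Many lines of a gene share exons and reads, so they are not separate measurements. The 270 lines include those of Oas3, whose chosen line passed the filter through the control libraries alone. Lines that pass in that way had to differ from control, and they were not counted apart.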

How the data were processed

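RNA libraries (TruSeq RNA v2, from total RNA) were made from 15 samples in 5 groups of 3, grouped by the agent in the labels. The deposited table gives RPKM per transcript line, with a decimal comma, per the file headers. CASAVA and bcl2fastq are named in the submitters' processing notes, while for the aligner, genome build and counting the entry is "not given in the sources used here". Of 168326 lines, 23172 have no symbol and were left out, a choice made after the table was seen. Each gene took its line with the highest mean. Whole reads were recovered from the RPKM steps (13868 of 13869 tested genes, within 0.02 read), which gave depths of 27.01 to 42.64 M reads. Intervals on reads cover counting error only.

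Genes with at least 0.5 RPKM in 3 libraries were tested with limma 3.58.1 in R 4.3.3 on log2(RPKM + 0.5), with a mean-variance trend, all 5 groups in 1 fit, two-sided, and Benjamini-Hochberg adjustment over all 13869 genes within each comparison at 0.05. All adjusted p-values are limma's unless voom is named. Fold changes on this scale understate the change of low genes. The fit was tested on simulated data. Alternatives were other pseudocounts, filters and scalings, voom, a replicate block and leaving out each library.

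The members and lists were chosen with earlier results of these data known. Values by library were given for members with the 8 largest changes per FGF against control or the 5 largest in other comparisons, and for members that went against the majority. Up to 4 genes per pathway list with the largest FGF8b change were named, with Ifnb1, Ifnar1, Ifnar2, Jak1 and Tyk2, and outside the lists the 8 genes most like the members. Some genes that this rule names are not reported here. Further genes, such as Ifngr2, Stat3, Irf3, Mavs, Tmem173, Nlrc5, Cd274 and members outside this rule, were chosen after their values were seen. Promoters came from RefSeq (GRCm38.p6).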

Additional observations from a re-analysis of the deposited data

How the results depend on the processing

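Every count and median over the members kept its direction, and counts stayed within 1.5 times the main count, under the alternatives run. Of 4809 repeats of a single member's change, 4789 kept direction and side of the threshold, 11 lost the call, 9 gained it and 0 reversed. Leaving out 1 library gave 41 to 42 called members in FGF1 against control, 35 to 41 in FGF8b plus BAY-876 against FGF8b and 38 to 40 in FGF8b against FGF1. The median change for BAY-876 against FGF8b was then nearest 0 at -0.73, without BAY-876 replicate 2. With a filter at 1 RPKM, Oas3 was not tested and 42 members were called in FGF8b against control. With the replicate block, the called members numbered 42 (FGF1), 43 (FGF8b), 43 (FGF9), 37 (BAY-876 against FGF8b), 43 (BAY-876 against control), 39 (FGF8b against FGF1) and 0 (FGF9 against FGF8b), equal to the fit without it. Over all tested genes, 10 of 30 pairs of same-numbered libraries correlated above 0.1 (from -0.443 to 0.534). The numbers were therefore not taken to pair the libraries. Among the members, though, the second library was the lowest of its group for most of them in every group but FGF9. Depth limits Oas3, Ifi44l, Ifnb1 and Ptpn6, among others, which rest on few reads.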
